A study of Homo sapiens with 4 samples.

Results

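Thrombomodulin (THBD) and 8 other genes of blood clotting and clot dissolution were followed in A549 cells: PROCR, F3, TFPI, TFPI2, F2R, PLAU, PLAUR and PLAT. They were found by gene symbol and are 9 of the 34608 genes in the deposited counts. They were selected on their counts in dex against etoh, the contrast described here, so that difference is given for each of them as a description, without a test. A549 is an established human lung adenocarcinoma line of alveolar epithelial origin. The cells had been grown to 90% confluence in F12K medium. In the dex group, 2 libraries came from cells given 100 nM dexamethasone, an artificial ligand of the glucocorticoid receptor. In the etoh group, 2 libraries came from cells given 0.02% ethanol as the vehicle control. The time of 3 h is taken from the naming of the deposited data, and the labels do not say whether the dexamethasone was itself dissolved in ethanol. Both groups are of the 1 cell line, with no other genetic change or agent in the labels.

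Clotting starts when tissue factor, the product of F3, binds factor VII at a cell surface, and it ends in thrombin and fibrin. TFPI blocks the tissue factor complex, thrombomodulin turns thrombin into an activator of protein C, and the receptor PROCR presents protein C to that complex. Fibrin is then cleared by plasmin, which the proteases urokinase (PLAU) and tissue plasminogen activator (PLAT) release from plasminogen. Cells sense thrombin through the receptor encoded by F2R. Lung epithelial cells are known to make tissue factor, urokinase and its receptor, and glucocorticoids are known to alter the fibrinolytic balance of many cells.

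The libraries held between 9764159 and 11887526 reads aligned to named transcripts, and levels are given as CPM, reads scaled to this total. A count of 0 allows up to 3 counts, or 0.252 to 0.307 CPM; floors and intervals cover counting error only. No library repeated another: the chi-square of counts over its degrees of freedom was 5.37 within dex, 6.97 within etoh and 15.2 to 26.4 between the groups. The hormone response was present, since FKBP5, TSC22D3 and PER1, 3 known targets of the receptor, were higher in dex by 3.38 (SE 0.11), 4.46 (SE 0.13) and 3.87 (SE 0.15) on the log2 scale. Of 9 epithelial and A549 markers, 7 stood at 1 CPM or more in every library, and the surfactant genes SFTPB and SFTPC did not. The summed level of that list was 8244 to 9334 CPM in dex and 5136 to 5799 CPM in etoh. The markers did not differ alike: the keratins KRT8, KRT18 and KRT7 were higher in dex by 1.03, 0.68 and 0.66 on the log2 scale. EPCAM was at -0.22 (SE 0.20), CDH1 at 0.15 (SE 0.12), CDH2 at 0.04 (SE 0.10) and VIM at -0.07 (SE 0.10). Endothelial cells are the classical site of THBD, PROCR and TFPI. Of 8 endothelial markers found, TIE1 and VWF were at 0 in all libraries, ESAM alone reached 1 CPM in each, and CDH5 had 3 to 5 reads. The endothelial list summed to 3.95 to 4.07 CPM in dex and 2.46 to 3.11 CPM in etoh. In these bulk samples, fewer cells of a type and less RNA per cell cannot be told apart.

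All 9 genes passed the count filter. Over the 14777 tested genes, edgeR's quasi-likelihood test called 6.98% higher and 4.42% lower in dex at an adjusted p of 0.05. The genes so called include THBD and F3 on the higher side, 2 of the 9, and TFPI, TFPI2, PLAU and PLAUR on the lower side, 4 of the 9. Under the 12 other settings given below, THBD, F3 and PLAU were so called in 12, TFPI and PLAUR in 11, and TFPI2 in only 7. F2R, not called here, was called in 1. Since the 9 genes were selected on this contrast, these counts only describe the selection and are no test of them. The median log2 fold change was 0.06 over the 9 genes and -0.0026 over all tested genes, and the median size without sign was 0.46 against 0.19. CPM ranges of the groups did not overlap for 8 of the 9 genes, 4 higher and 4 lower in dex, where 53.3% of the tested genes did not overlap (24.5% higher and 28.8% lower). Nothing is read from these counts and medians.

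**Figure D1:**
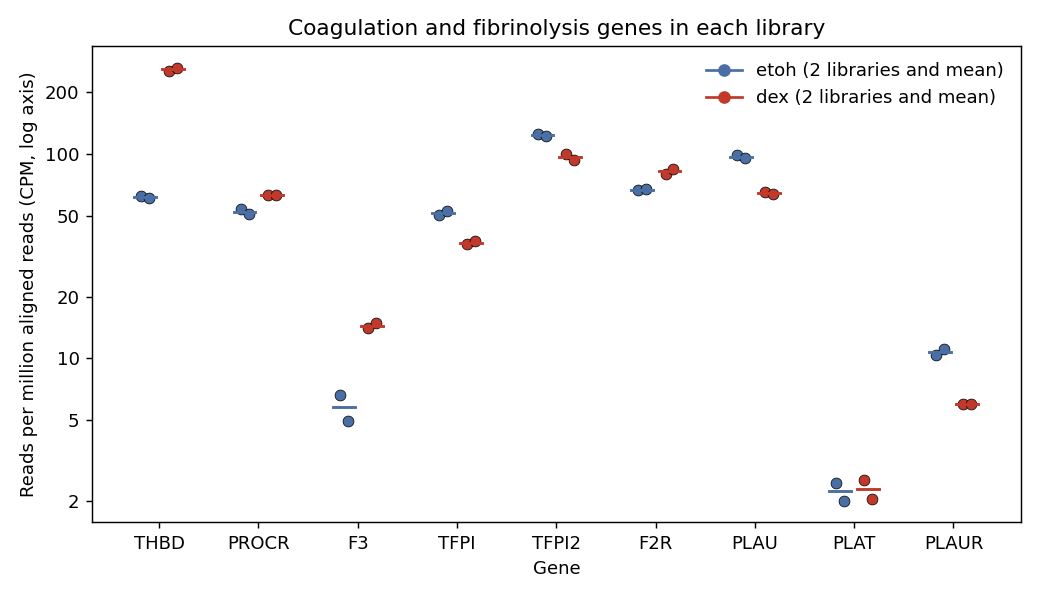
Level of each of the 9 genes in each of the 4 libraries, in CPM on a log axis, with 1 point per library and a line at the mean of each group. The THBD points at 255 and 265 CPM in dex stand far above those at 62.5 and 60.8 CPM in etoh, and the PLAT points of the groups lie on one another.

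Sequences of these genes are shown first, as a description. The 3' UTRs of several of these genes hold the AU-rich core ATTTA and the longer TTATTTA, letters known as the binding sequence of RNA-decay proteins such as ZFP36. The stretches below are 30 bases around TTATTTA in the 3' UTR of 1 transcript per gene. They are shown for genes high in dex (THBD, F3), genes low in dex (PLAU, PLAUR) and a receptor with a small difference (F2R). The transcript was the one with the most reads among those that GENCODE 29 holds with a coding sequence and a 3' UTR. For PLAU this was PLAU-202 with 1134 reads, while PLAU-201 had 1139. Each TTATTTA contains an ATTTA, and only the sense strand was searched. Letters run 5' to 3' with the motif in capitals; in THBD the capitals run over 2 overlapping copies.
THBD: ttgtacatagTTATTTATTTAttggagata
F3: tattgagataatTTATTTAatatactttaa
F2R: attgggcactatTTATTTAcaaatgttttg
PLAU: atttcactatttTTATTTAtatttttgtaa
PLAUR: ttaatattcataTTATTTAttttatactta
In the 3' UTR of THBD, 2144 bases long, ATTTA was found 9 times, or 4.20 times per kilobase. TFPI2 was the densest of the 9 genes with 9.83 per kilobase, then TFPI with 6.28, F3 with 4.86 and F2R with 3.51. PLAUR had 3.22, PLAT 2.63, PLAU 2.15 and PROCR 1.82 per kilobase. The median over 12580 genes was 1.68 per kilobase. TTATTTA occurred at least once in 7 of the 9 genes, PLAT and PROCR being without it, and in 32.2% of the 12580 genes. The nonamer ATTTATTTA, which contains 2 overlapping copies of ATTTA, was in THBD, F3, TFPI, TFPI2 and F2R, and in 7.43% of all. Genes that were higher and genes that were lower in dex both held the motif. A match is a description of letters only.

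Promoters were found in RefSeq (GRCh38.p14) for 6 of the 9 genes; THBD, F2R and PLAT had no entry. The 250 bases before the start that RefSeq gives were searched on both strands. The GENCODE gene spans given below can begin further upstream. By those spans, the TFPI, PLAU and PLAUR windows lie within the gene, and the PROCR window lies before it. The F3 and TFPI2 windows lie partly within the gene, and the TFPI2 stretch printed below lies wholly within it. TGANTCA is a looser form of the recognition sequence of AP-1 (the Jun and Fos factors), which has G or C at the centre. The looser form was found in F3, TFPI2 and PLAUR, and in 6.57% of 35116 promoters. The F3 match at -210 and the PLAUR match are TGAGTCA. The F3 match at -223 and the TFPI2 match are TGAATCA, outside the stricter form. The stretches below show TGANTCA in capitals, 5' to 3' on the gene's strand, in a gene that was higher in dex and a pair that were lower. In F3, on the minus strand at chr1:94541760-94542009, it begins at -223 and -210 from the start. In TFPI2 (minus strand, chr7:93890808-93890867) it begins at -87, and in PLAUR (minus strand, chr19:43670323-43670382) at -186.
F3: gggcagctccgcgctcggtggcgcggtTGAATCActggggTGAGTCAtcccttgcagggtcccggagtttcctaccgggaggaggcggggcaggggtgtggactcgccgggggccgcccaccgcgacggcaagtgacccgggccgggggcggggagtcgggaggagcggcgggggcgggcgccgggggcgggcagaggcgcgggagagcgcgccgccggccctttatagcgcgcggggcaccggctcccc
TFPI2: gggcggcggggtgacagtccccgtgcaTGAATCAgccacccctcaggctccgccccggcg
PLAUR: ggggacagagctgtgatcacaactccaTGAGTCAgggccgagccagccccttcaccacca
The glucocorticoid receptor's recognition palindrome (GNACA, 3 free bases, TGTNC) was in 0.327% of all promoters and in none of these windows. The single arm AGAACA, found in 12.4% of all promoters, were in none of them either. These windows reach 250 bases only, and nothing is drawn from the absence of the letters.

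THBD encodes thrombomodulin, the cell-surface receptor that changes what thrombin cuts. The gene lies at chr20:23045633-23049741 on the minus strand (GRCh38, GENCODE 29), and its only transcript, of 4109 bases, is a single exon. THBD had 2504 and 2947 reads in dex and 610 and 723 in etoh. This was 255 and 265 CPM in dex against 62.5 and 60.8 CPM in etoh. Both dex libraries were far above both etoh libraries, and each pair lay close together. The mean was 259.7 ± 6.93 CPM (SD, n = 2) in dex and 61.6 ± 1.17 CPM (SD, n = 2) in etoh, a 4.26-fold higher level and a log2 fold change of 2.09 (SE 0.10). By log2 fold change THBD ranked 94 of 14777 tested genes. None of the 50-base stretches of its transcript occurred in another gene of the files.

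Per kilobase of transcript (RPKM), THBD stood at rank 5262 of the tested genes in etoh and at rank 1407 in dex. Its length-scaled level was 63.2 ± 1.69 RPKM (SD, n = 2) in dex and 15.0 ± 0.285 RPKM (SD, n = 2) in etoh. The 5 tested genes with a pattern over the 4 libraries most like that of THBD were IL6R, TIPARP, TRABD2B, CTGF and S100P. The measure was the Euclidean distance between mean-centred log2(CPM + 0.5) values, over 4 libraries, among 11984 genes that averaged 2 CPM or more. IL6R, a subunit of the interleukin-6 receptor, was closest, at a distance of 0.0997, with 31.7 and 30.7 CPM in dex and 7.58 and 6.90 CPM in etoh. TIPARP, an ADP-ribosyltransferase, followed at 0.115, with 231 and 226 CPM in dex and 50.8 and 51.1 CPM in etoh. The distances of TRABD2B, CTGF and S100P were 0.165, 0.177 and 0.179. The etoh libraries held only 4 and 5 reads of TRABD2B, so its place in this order rests on few reads. Its etoh levels of 0.410 and 0.421 CPM were below the added 0.5 CPM, which lessens its difference on this scale. The edgeR log2 fold change of TRABD2B was 3.16 (SE 0.43), larger than that of THBD. CTGF, a secreted matricellular protein, was at 116 and 143 CPM in dex and 29.6 and 29.6 CPM in etoh. With 4 libraries in 2 groups, such likeness is mostly a likeness of direction and, apart from TRABD2B, of size.

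PROCR encodes the endothelial protein C receptor, which holds protein C beside thrombomodulin (chr20:35172073-35216240, plus strand, 1 transcript in the files). PROCR was at 62.9 and 63.0 CPM in dex and 53.8 and 50.8 CPM in etoh. The dex libraries were the higher pair and the groups did not overlap, but the distance was small beside that of THBD. PROCR was 1.22-fold higher in dex, with a log2 fold change of 0.29 (SE 0.11). In etoh THBD stood below PROCR, with a THBD to PROCR ratio of RPKM of 0.381 and 0.393. In dex it stood above, with ratios of 1.33 and 1.38. The order of the receptor pair was thus opposite in the groups.

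F3 encodes tissue factor, the transmembrane receptor that starts coagulation (chr1:94529225-94541800, minus strand). F3 had 138 and 166 reads in dex and 65 and 59 reads in etoh. This was 14.0 and 14.9 CPM in dex and 6.66 and 4.96 CPM in etoh. The groups did not overlap, and the etoh libraries lay further apart than the dex libraries. F3 was 2.54-fold higher in dex, with a log2 fold change of 1.35 (SE 0.20), and ranked 248 by it. The length-scaled level was 6.84 ± 0.336 RPKM in dex and 2.80 ± 0.597 RPKM in etoh (SD, n = 2 each).

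Both F3 transcripts in the files were counted. F3-001 codes for 295 residues, and F3-002 codes for 238 residues because it lacks an exon of 160 coding bases, which takes away the membrane-spanning part. The stretches below span coding base 594, where the messages part, with the letters after it in capitals.
F3-001: agttcaggaaagaaaACAGCCAAAACAAAC
F3-002: agttcaggaaagaaaTATTCTACATCATTG
F3-001 had 90 and 100 reads in dex and 33 and 33 in etoh. F3-002 had 48 and 66 reads in dex and 32 and 26 in etoh. Reads from stretches that both transcripts hold can match both, and how they were placed is not given. The share of F3-001 was 65.2% (95% Wilson interval 57.0 to 72.7) and 60.2% (52.6 to 67.4) in dex. It was 50.8% (38.9 to 62.5) and 55.9% (43.3 to 67.8) in etoh. The dex shares were the higher pair, but the intervals overlapped between the groups, and a difference in share was not detectable at this depth.

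TFPI encodes tissue factor pathway inhibitor, which binds factor Xa and then the tissue factor complex (chr2:187464230-187565760, minus strand, 11 transcripts in the files). TFPI was at 36.1 and 37.7 CPM in dex and 50.3 and 52.7 CPM in etoh. Both dex libraries were below both etoh libraries. The log2 fold change was -0.46 (SE 0.11), which leaves 0.725 of the etoh level. The forms of TFPI part at coding base 628. The 304-residue form keeps the third Kunitz domain and a basic tail, and the 251-residue form has the end by which it is held at the membrane with a lipid anchor; the letters after the parting point are in capitals.
TFPI-001, 304 residues: ttcccagcctttttgAATTTCACGGTCCCT
TFPI-009, 251 residues: ttcccagcctttttgTTACAAAAGAAGGAA
The 304-residue forms took 87.3% and 90.0% of TFPI reads in dex and 88.4% and 88.8% in etoh. The 251-residue forms took 3.66% and 3.57% in dex and 4.07% and 2.23% in etoh. These shares did not separate the groups, and the shorter form rested on 13 to 20 reads per library.

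TFPI2 encodes a Kunitz-type inhibitor of plasmin, trypsin and other matrix-acting proteases, related to TFPI and secreted into the matrix (chr7:93885396-93890991, minus strand, 3 transcripts). TFPI2 was at 100.02 and 93.0 CPM in dex and 125.7 and 121.8 CPM in etoh. The dex pair was the lower one, without overlap. TFPI2 in dex was at 0.790 of the etoh level, a log2 fold change of -0.34 (SE 0.10). The transcripts did not differ alike: TFPI2-001 and TFPI2-201 had log2 ratios of -0.43 and -0.57, and the short TFPI2-003, of 781 bases, had -0.01. TFPI2-003 had 287 and 235 reads in dex and 222 and 330 in etoh, and these ranges overlapped. Reads that match several TFPI2 transcripts are not resolved in the files.

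The ratio of F3 to its inhibitor TFPI, in RPKM, was 0.487 and 0.532 in dex and 0.177 and 0.124 in etoh. The dex libraries had the higher ratio, since F3 was higher and TFPI was lower in the same libraries. The ratio of F3 to TFPI2 was 0.0925 and 0.114 in dex and 0.0407 and 0.0290 in etoh. THBD over F3 was 9.39 and 9.10 in dex and 4.72 and 6.22 in etoh, so THBD stood higher over F3 in dex although both were higher there. These ratios are of message levels and give no protein level or activity.

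**Figure D2:**
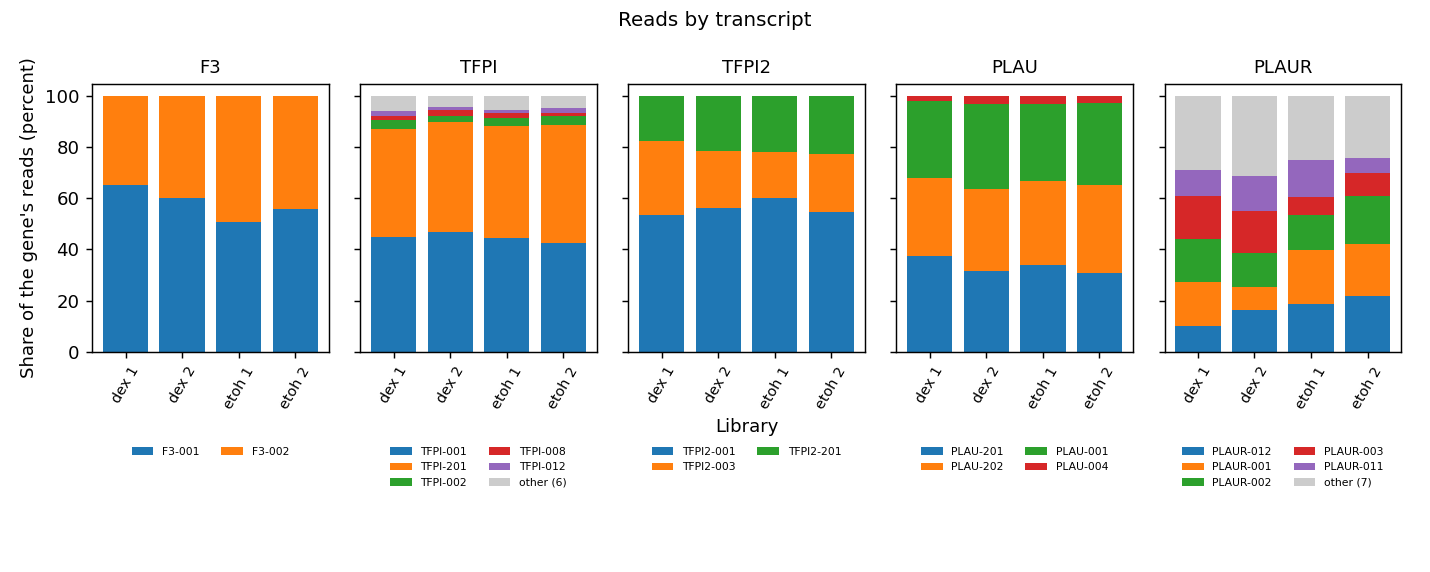
Share of reads, in percent, that the transcripts of F3, TFPI, TFPI2, PLAU and PLAUR took in each library, as stacked bars with the 5 transcripts of most reads coloured and the rest in grey. F3-001 took 65.2% and 60.2% of F3 reads in dex and 50.8% and 55.9% in etoh, and the intervals of these shares overlap.

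F2R encodes protease-activated receptor 1, which thrombin switches on by cutting it (chr5:76716043-76735781, plus strand). F2R was at 79.97 and 84.7 CPM in dex and 66.4 and 67.5 CPM in etoh. The dex libraries were both higher, and the groups did not overlap. The log2 fold change was 0.32 (SE 0.11), a 1.25-fold higher level. F2R-001 took 99.8% of the F2R reads, and 2.68% of its 50-base stretches occurred in other genes.

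PLAU encodes urokinase, the plasminogen activator that works at the cell surface (chr10:73909177-73917497, plus strand). PLAU was at 65.5 and 63.5 CPM in dex and 98.3 and 95.9 CPM in etoh. The 2 libraries of each group were close and the groups lay far apart. The log2 fold change was -0.57 (SE 0.11), or 0.672 of the etoh level. All 4 PLAU transcripts had lower CPM in dex, with log2 ratios of -0.49, -0.71, -0.56 and -0.84 for PLAU-201, PLAU-202, PLAU-001 and PLAU-004. Over all libraries, PLAU-201, PLAU-202 and PLAU-001 took 33.0%, 32.9% and 31.5% of the PLAU reads. Reads that match several PLAU transcripts are not resolved in the files, so the 4 ratios are not separate observations. PLAU shares 916 exon bases with C10orf55 on the opposite strand, and 19.9% of the 50-base stretches of PLAU-202 also occur in that gene. C10orf55 had 15 and 23 reads in dex and 25 and 43 in etoh against 644 to 1140 reads of PLAU. The strand setting of the counts is not given, so a part of the PLAU reads could come from either gene.

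PLAUR encodes the urokinase receptor, which holds urokinase at the membrane (chr19:43646095-43670547, minus strand, 12 transcripts). PLAUR had 59 and 67 reads in dex and 101 and 133 in etoh. This was 6.003 and 6.015 CPM in dex and 10.3 and 11.2 CPM in etoh, again without overlap. PLAUR in dex was at 0.565 of the etoh level, a log2 fold change of -0.82 (SE 0.20). Its transcripts rest on few reads each. PLAUR-012 had 6 and 11 reads in dex and 19 and 29 in etoh, and PLAUR-003 had 10 and 11 in dex and 7 and 12 in etoh, so the first separated the groups and the other did not. Enzyme and receptor were lower together: the PLAU to PLAUR ratio of RPKM was 4.97 and 4.81 in dex and 4.50 and 4.30 in etoh.

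PLAT encodes tissue plasminogen activator, the activator that works on fibrin (chr8:42175233-42207724, minus strand, 10 transcripts). PLAT had 25 and 23 reads in dex and 24 and 24 in etoh. This was 2.54 and 2.06 CPM in dex and 2.46 and 2.02 CPM in etoh, and the groups overlapped fully. The log2 fold change was 0.06 (SE 0.34). A change of the size of that error, and some larger ones, would not be seen at this depth. PLAU stood 27.0 and 31.4 times above PLAT in dex and 35.2 and 46.7 times above it in etoh, in RPKM.

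**Figure D3:**
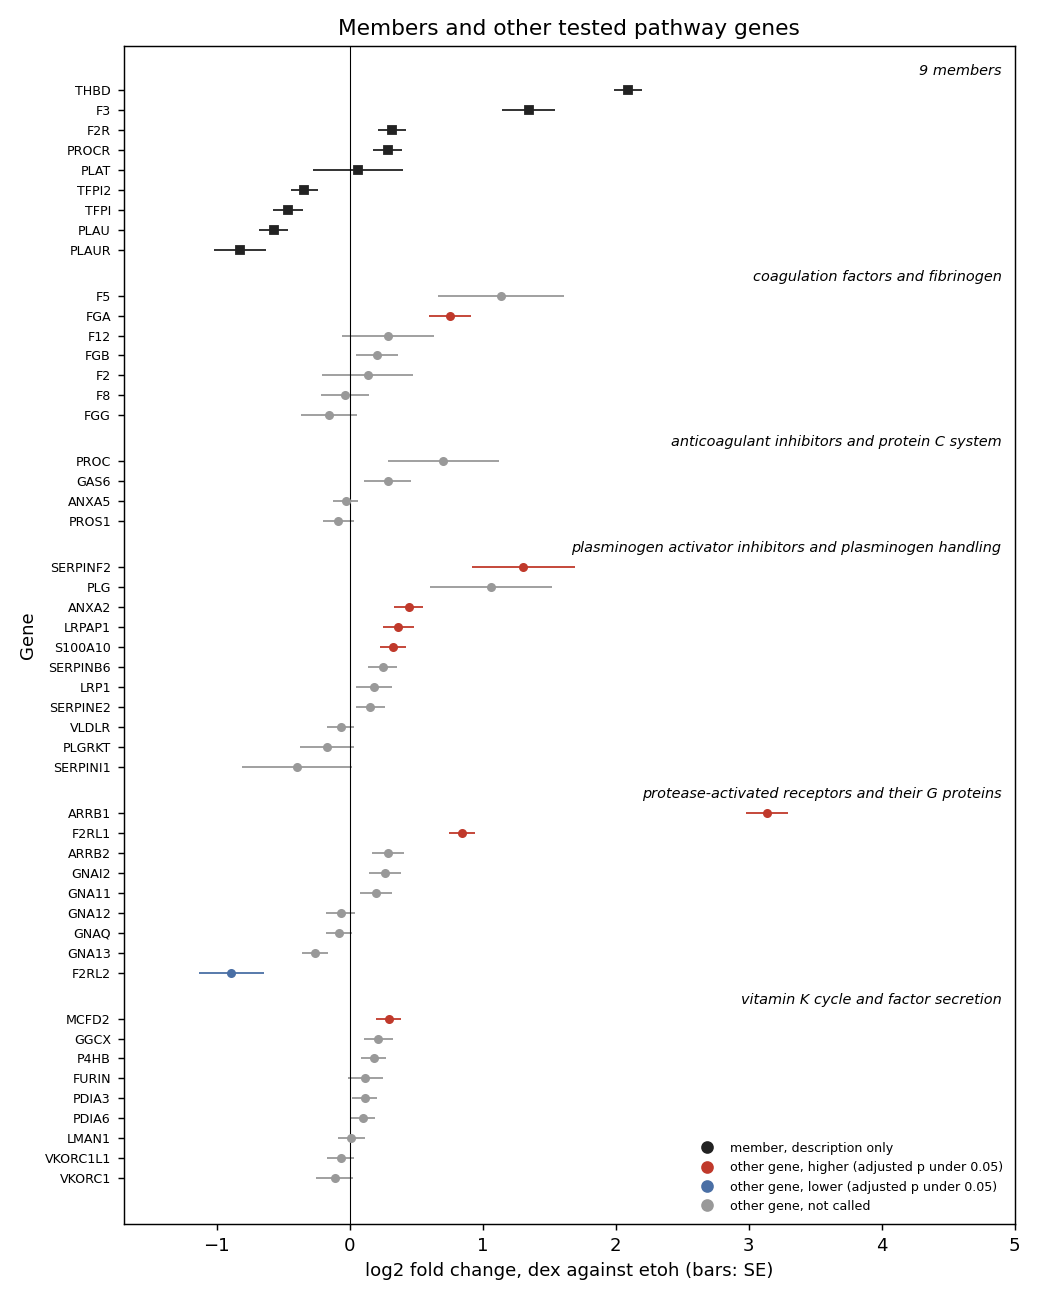
Log2 fold change of dex over etoh (horizontal axis) for the 9 genes, as black squares, and for tested genes of 5 related lists, with 1 gene left out, as points coloured by their call, with bars of 1 SE and 2 libraries per group. THBD stands at 2.09 and F3 at 1.35 on the higher side, and PLAUR at -0.82 on the lower side.

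Between genes, levels were compared per length only. In etoh, the order of RPKM ran from TFPI2 at 80.6 ± 2.03 through PLAU at 45.3 ± 1.22, PROCR at 38.8 ± 1.55, TFPI at 18.7 ± 0.654 and F2R at 17.8 ± 0.561 to THBD at 15.0 ± 0.285 (SD, n = 2 each). PLAUR at 10.3 ± 0.0518, F3 at 2.80 ± 0.597 and PLAT at 1.13 ± 0.253 closed it. TFPI and F2R were 0.932 RPKM apart, less than the sum of their SDs, 1.22. Their ranges did not overlap but lay close, with TFPI at 18.23 and 19.16 RPKM and F2R at 17.37 and 18.16 RPKM. In dex, TFPI2 at 66.8 ± 6.51 and THBD at 63.2 ± 1.69 led, with ranges that overlapped. PROCR at 46.7 ± 0.0752, PLAU at 29.7 ± 0.208, F2R at 21.9 ± 0.850 and TFPI at 13.4 ± 0.182 followed. F3 at 6.84 ± 0.336, PLAUR at 6.08 ± 0.184 and PLAT at 1.02 ± 0.102 were the lowest. THBD went from sixth place in etoh to the second in dex, and F3 and PLAUR changed places. Length-scaled levels of genes with many transcripts depend on how the aligner spread reads over transcripts of different length.

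**Figure D4:**
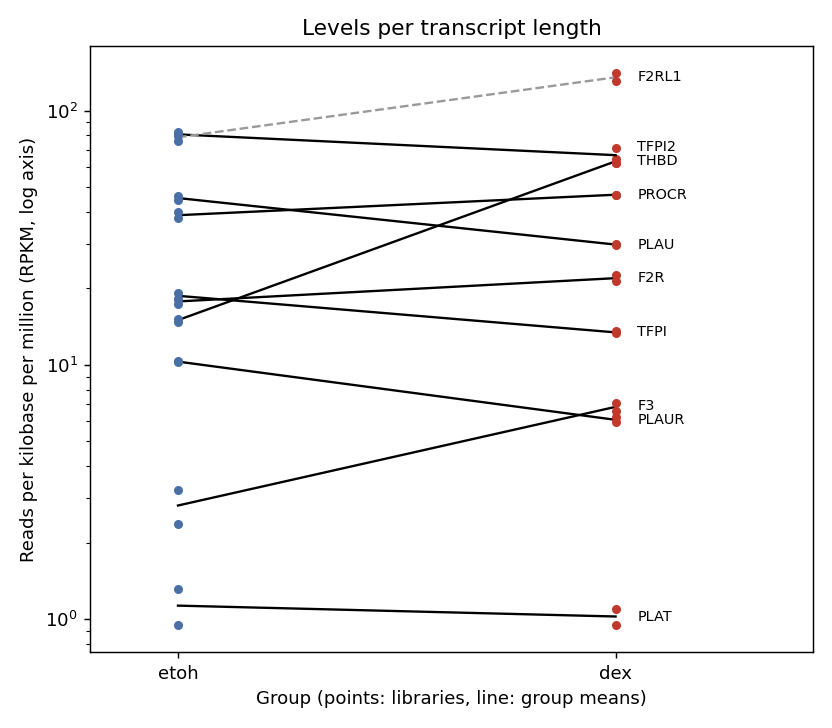
Length-scaled level (RPKM, log axis) of the 9 genes in etoh and dex, with 1 point per library and solid lines that join the group means; the dashed line shows the related gene F2RL1. THBD lies sixth in etoh at 15.0 RPKM and second in dex at 63.2 RPKM, beside TFPI2.

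Other genes of the pathway were read from 5 lists that hold none of the 9 genes. Of 59 listed genes 41 were tested, and edgeR's quasi-likelihood test called 9 higher (22.0%) and 1 lower (2.44%), where all tested genes gave 6.98% higher and 4.42% lower. The median log2 fold change of the 41 genes was 0.18. The lists were chosen with earlier results of these data known, so these shares and this median describe the lists and are no independent test. In the plasminogen list, 5 of 12 tested genes rose and none fell. In the list of protease-activated receptors and G proteins, 2 of 9 rose and 1 fell. Of the coagulation factors and fibrinogen chains 1 of 7 rose and none fell, and of the vitamin K and secretion genes 1 of 9 rose and none fell. At an unadjusted p under 0.05, 14 of the 41 genes were higher and 2 lower, both of the 2 in the receptor list. DESeq2 called 7 higher and 0 lower. Without dex replicate 1, or without etoh replicate 1, edgeR called 5 higher and 0 lower. Of the anticoagulant inhibitors, 0 of 4 tested passed with edgeR, 0 had an unadjusted p under 0.05 and 0 passed with DESeq2. F9, F11, F13A1 and VWF were at 0 in all libraries.

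In the plasminogen list, SERPINF2, the inhibitor of plasmin, was at 1.07 ± 0.0828 CPM in etoh and 2.59 ± 0.648 CPM in dex (SD, n = 2), and it rose by 1.31 on the log2 scale (SE 0.39, edgeR adjusted p = 0.031). ANXA2 and S100A10 form a surface complex that binds plasminogen and tissue plasminogen activator. ANXA2 rose by 0.45 (SE 0.11, edgeR adjusted p = 0.0078), and S100A10 by 0.32 (SE 0.10, edgeR adjusted p = 0.036). ANXA2 has near-identical processed pseudogenes, so its count is uncertain. LRPAP1, the chaperone of the LDL receptor family, was chosen after its values were seen and rose by 0.37 (SE 0.11, edgeR adjusted p = 0.039). Leaving out dex replicate 1 ended the calls of ANXA2, at 0.30, S100A10, at 0.27, and LRPAP1, at 0.31. Without etoh replicate 1, S100A10 was at 0.24 and LRPAP1 at 0.32, and without etoh replicate 2 LRPAP1 was at 0.43, none of them called. DESeq2 did not call SERPINF2 (adjusted p = 0.35) or LRPAP1 (adjusted p = 0.17), and it called 3 of the 12 tested genes of the list. SERPINF2 was called with dex replicate 1 left out, but not on leaving out dex replicate 2, or etoh replicate 1 or 2, where it was at 1.03, 1.39 and 1.21.

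Among the receptors, F2RL1, the trypsin- and tissue-factor-complex-sensing receptor PAR2, rose from 199 ± 10.5 to 352 ± 7.50 CPM (SD, n = 2), by 0.84 on the log2 scale (SE 0.10, edgeR adjusted p = 1.2e-06). F2RL1 over F2R in RPKM was 6.12 and 6.21 in dex and 4.67 and 4.18 in etoh, so PAR2 message was the more abundant of the pair in every library. F2RL2, the PAR3 gene, was at 8.13 ± 0.670 CPM in etoh and 4.28 ± 1.44 CPM in dex (SD, n = 2), a log2 fold change of -0.89 (SE 0.24, edgeR adjusted p = 0.019). DESeq2 gave F2RL2 an adjusted p of 0.17, and without dex replicate 1 or etoh replicate 1 it was at -0.60 and -0.79 and not called. ARRB1, the beta-arrestin that switches off activated receptors, was at 6.46 ± 1.29 CPM in etoh and 55.7 ± 4.38 CPM in dex (SD, n = 2), and rose by 3.14 on the log2 scale (SE 0.16, edgeR adjusted p = 3.5e-12). FGA, the fibrinogen alpha chain, rose by 0.75 (SE 0.16, edgeR adjusted p = 0.0019), and FGB, the beta chain, was at 0.21 (SE 0.16, edgeR adjusted p = 0.47). FGG, the gamma chain, was named after its values were seen. It was at -0.15 (SE 0.21) and not called, so the chains did not differ alike. PROS1, the cofactor of activated protein C, was at -0.08 (SE 0.11), and ANXA5 was at -0.03 (SE 0.10), neither past the threshold. MCFD2, which helps to export factors V and VIII from the cell, was chosen after its values were seen and rose by 0.29 (SE 0.09, edgeR adjusted p = 0.047). Its call was lost without any 1 of the 4 libraries, with log2 fold changes of 0.26 to 0.33. The protein-folding enzymes P4HB and PDIA3 of the same list did not pass, at 0.18 (SE 0.10) and 0.11 (SE 0.09).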

How the data were processed

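RNA-seq libraries of A549 cells were analysed, 2 treated with dexamethasone and 2 with ethanol. The authors deposited raw counts, 1 file per library, each listing a transcript name, its length as another column, the aligned reads and, in an unnamed last row, the unaligned reads. CASAVA, Bowtie, SAMtools and DESeq2 are named in the submitters' processing notes, with no role or order. The aligner settings, the build, the annotation and the use of strand are details not given in the sources used here. The unnamed row held 17.2% to 18.7% of the reads of a library and was left out of library sizes and tests.

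Reads of all transcripts of a gene identifier were summed, which gave 34608 genes. CPM is the reads of a gene scaled to the aligned total, and RPKM is the sum over transcripts of CPM per kilobase of transcript. The test was edgeR's (version 4.0.16, under R 4.3.3), with filterByExpr at a minimum count of 10, TMM factors, the quasi-likelihood test with group as the only term, and Benjamini-Hochberg adjustment over 14777 tested genes, with an adjusted p of 0.05 as the threshold. Each SE was derived as the size of the log2 fold change over the root of its F statistic. The biological coefficient of variation was 8.08%. The code was tested on simulated data. The alternatives were other normalization factors, other count filters, DESeq2 1.42.0, other ways of forming gene counts, the replicate number as a block, and leaving out each library. A crossed block was added after the data were seen.

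The 9 genes and the gene lists were chosen with earlier results of these data known. Other genes were named by a rule. It took from each list of related genes up to 4 called genes by smallest p, or the 2 with the highest mean CPM where fewer than 2 were called. It added 3 hormone-response genes and the 5 genes closest to THBD. Of these, 1 called gene of the plasminogen list is counted with its list and is not reported here by itself. LRPAP1, MCFD2 and FGG were named after their values were seen, and FGG is not among the genes followed through the other settings. Gene positions, exons and UTR sequence were read from GENCODE 29 (GRCh38), which held 94.8% of the gene identifiers, and promoters from RefSeq on GRCh38.p14. Whether the 2 libraries of a group were separate cultures is not in the labels; a p-value therefore reflects the spread among these libraries alone, and that spread may be technical.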

Additional observations from a re-analysis of the deposited data

How the results depend on the processing

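With 12 other settings, 107 log2 fold changes were recomputed for the 9 genes. None reversed apart from PLAT, whose sign varied, and 104 moved by less than the spread. The others came from letting the transcript with most reads stand for its gene: TFPI -0.38, PLAU -0.46 and PLAUR -1.41. THBD stayed between 2.06 and 2.13 and F3 between 1.13 and 1.59. PLAT ranged from -0.09 to 0.22. Against 1031 genes called higher and 653 lower, DESeq2 called 633 and 366, and in the 5 lists 7 and 0 in place of 9 and 1. The transcript with most reads gave 5 higher in the lists. Leaving out 1 library gave 705 to 1159 higher and 406 to 806 lower over all genes, and 5 to 9 higher and 0 to 1 lower in the lists. The low ends for lower genes were 418 without dex replicate 1 and 406 without etoh replicate 1, and the lists then gave 5 higher and 0 lower. The library left alone in its group was taken to have the other group's spread. The replicate block gave 974 higher, 584 lower, and 6 and 1 in the lists. Deviations of same-numbered libraries correlated at -0.259 over 9841 genes, and nothing in the labels says that a number marks a shared batch, so the numbers were not taken to pair the libraries. A crossed replicate block, chosen after seeing the data and run for counts of calls only, gave 1538 higher and 1172 lower, and 12 and 2 in the lists. Of 263 values for other named genes, 25 lost the threshold and 0 reversed: MCFD2 lost it in 7 settings, LRPAP1 in 6, S100A10 and SERPINF2 in 4 each, F2RL2 in 3 and ANXA2 in 1. The cause was not tested. Depth limits PLAT, the PLAUR transcripts, the F3 shares and the shorter form of TFPI.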

Other observations

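Of the other cell types, the fibroblast markers summed to 18.6 to 24.2 CPM in dex and 15.6 to 18.5 CPM in etoh, with COL1A2 at 0 in every library. The blood and platelet markers summed to 5.03 to 5.09 CPM in dex and 3.48 to 3.95 CPM in etoh, with HBB and HBA1 at 0. Their part in the levels of the 9 genes was not tested.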
